A study of Mus musculus with 16 samples.

Results

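Nr4a1, Nr4a2 and Nr4a3 form the NR4A family of orphan nuclear receptors, and their transcripts were followed by name through 16 RNA-seq libraries of mouse hippocampal cultures. They are 3 of the 55385 genes in the files, and all 3 passed the filter on low counts that left 17222 genes for testing. The cultures came from newborn C57Bl/6N mice and held neurons together with glia. All of them, controls included, were infected with a recombinant adeno-associated virus that carries an shRNA and a GFP reporter. The shRNA was either a Control-shRNA or one against Dnmt3a1, the long isoform of the DNA methyltransferase Dnmt3a. Each kind of culture was left at baseline or treated for 4 h with bicuculline, a GABA-A receptor antagonist that releases the network from inhibition and sets off action potential bursts. This gave 4 groups of 4 libraries: Control-shRNA baseline, Control-shRNA bicuculline, Dnmt3a1-shRNA baseline and Dnmt3a1-shRNA bicuculline. A single shRNA sequence stands for the knockdown, and the virus reaches whichever cells it infects, so the groups differ in 1 construct and not in genotype.

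NR4A receptors are transcription factors whose ligand pocket is filled by their own side chains, so that their activity depends largely on how much protein is made and how it is modified. They bind DNA as monomers at the NBRE, as dimers at a related palindrome, and, for Nr4a1 and Nr4a2, as partners of retinoid X receptors. In neurons they are immediate early genes: synaptic activity and calcium entry switch them on through CREB and its coactivators, with no need for new protein. In the hippocampus they are best known for their part in the consolidation of long-term memory.

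Nr4a1 (ENSMUSG00000023034.7), also called Nur77, lies on chromosome 15 from 101254269 to 101274795 on the plus strand of GRCm38 and has 4 annotated transcripts. Nr4a2 (ENSMUSG00000026826.13), also called Nurr1 and required for midbrain dopamine neurons, lies on chromosome 2 from 57106830 to 57124003 on the minus strand and has 6. Nr4a3 (ENSMUSG00000028341.9), also called Nor1, lies on chromosome 4 from 48045153 to 48086447 on the plus strand and has 4. No other annotated gene overlaps any of these loci. The encoded proteins have 601, 598 and 627 residues. Over the 56 residues of the zinc fingers that contact DNA, Nr4a2 and Nr4a3 were 100% identical, and Nr4a1 shared 91.1% with each of them. Before the fingers, where the activation domain lies, identity was 35.2% to 44.5% between pairs. At the RNA level the members were distinct: none of the 31-base words of their transcripts was shared between them, and at most 0.452% of a member's words occurred in any other gene, so reads could be told apart.

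The bases before 1 transcription start of each gene are shown because activity reaches these genes through CREB, which recognises the cAMP response element. All 3 genes matched a RefSeq promoter window (GRCm38.p6, 250 bases before to 50 after the start). Capitals mark each TGACG, the short form of the element, or its reverse complement CGTCA. The Nr4a1 stretch is chr15:101266596-101266845 (plus strand), the Nr4a2 stretch is chr2:57124004-57124253 (minus strand), and the Nr4a3 stretch is chr4:48045055-48045152 (plus strand), which stops where the first annotated Nr4a3 transcript begins. The Nr4a1 stretch lies before the start at 101266846 and inside the span of a longer Nr4a1 transcript that starts at 101254269. Coding transcripts of Nr4a2 and Nr4a3 are also annotated from other starts, among them 57115038 and 48049114, which are not shown.
Nr4a1: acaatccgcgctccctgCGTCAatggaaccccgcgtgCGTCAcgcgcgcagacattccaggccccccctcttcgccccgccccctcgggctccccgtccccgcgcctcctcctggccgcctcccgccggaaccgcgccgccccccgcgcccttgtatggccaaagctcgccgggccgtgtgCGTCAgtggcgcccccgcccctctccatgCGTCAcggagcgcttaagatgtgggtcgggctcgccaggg
Nr4a2: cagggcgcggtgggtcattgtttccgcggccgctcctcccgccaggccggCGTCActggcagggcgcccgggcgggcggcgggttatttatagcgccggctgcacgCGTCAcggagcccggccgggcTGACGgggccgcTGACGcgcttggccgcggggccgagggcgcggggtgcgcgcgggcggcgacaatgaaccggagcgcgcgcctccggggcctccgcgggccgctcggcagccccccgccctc
Nr4a3: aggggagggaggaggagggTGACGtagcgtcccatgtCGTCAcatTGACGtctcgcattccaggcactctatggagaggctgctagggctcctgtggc
Each of the 3 windows held 4 short forms, counted on both strands. Of all 32851 windows in the table, 20.8% held at least 1 and 0.231% held at least 4. With the RefSeq start as 0, the matches began at -233, -213, -69 and -40 in Nr4a1, at -200, -144, -123 and -111 in Nr4a2, and at -231, -213, -205 and -147 in Nr4a3. The last of these lies past the end of the Nr4a3 stretch. No window held the full element TGACGTCA, which was present in 1.79% of all windows, the NBRE (AAAGGTCA, 1.51%) or a CArG box (1.63%), the site of serum response factor. The printed stretches were 74.4%, 80.0% and 61.2% G or C, and a match is a string of letters, not evidence of binding.

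At baseline in Control-shRNA cultures Nr4a3 was the most abundant member and Nr4a1 the least. In TPM, transcript abundances scaled by transcript length that allow genes to be compared within a library, Nr4a3 stood at 123, 98.3, 119 and 126 in replicates 1 to 4. Nr4a2 stood at 40.4, 44.9, 63.0 and 45.9 TPM, and Nr4a1 at 18.5, 17.7, 32.8 and 25.0 TPM. The ranges of the 3 genes did not overlap, and replicate 3 was the highest library for both Nr4a1 and Nr4a2.

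After 4 h of bicuculline the order had turned over, and Nr4a2 led. In Control-shRNA cultures Nr4a2 reached 615, 612, 593 and 525 TPM, Nr4a1 reached 528, 471, 447 and 406 TPM, and Nr4a3 reached 370, 320, 321 and 302 TPM. In each of the 4 libraries Nr4a2 was above Nr4a1 and Nr4a1 above Nr4a3, although the highest Nr4a1 library was slightly above the lowest Nr4a2 library. For every member, each treated library lay above each untreated one, as it did for 9.12% of all tested genes.

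In Dnmt3a1-shRNA cultures the baseline levels were 15.1, 16.7, 23.6 and 11.6 TPM for Nr4a1, 40.3, 51.7, 70.3 and 41.1 TPM for Nr4a2, and 82.1, 54.8, 62.5 and 72.2 TPM for Nr4a3. Here Nr4a2 and Nr4a3 overlapped, and in replicate 3 Nr4a2 was the higher. With bicuculline the levels were 409, 464, 408 and 402 TPM for Nr4a1, 676, 717, 652 and 589 TPM for Nr4a2, and 279, 228, 237 and 223 TPM for Nr4a3. The 3 ranges were separate and in the order seen in the controls, Nr4a2 above Nr4a1 above Nr4a3. All treated libraries again lay above all untreated ones, as for 10.4% of tested genes.

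**Figure D1:**
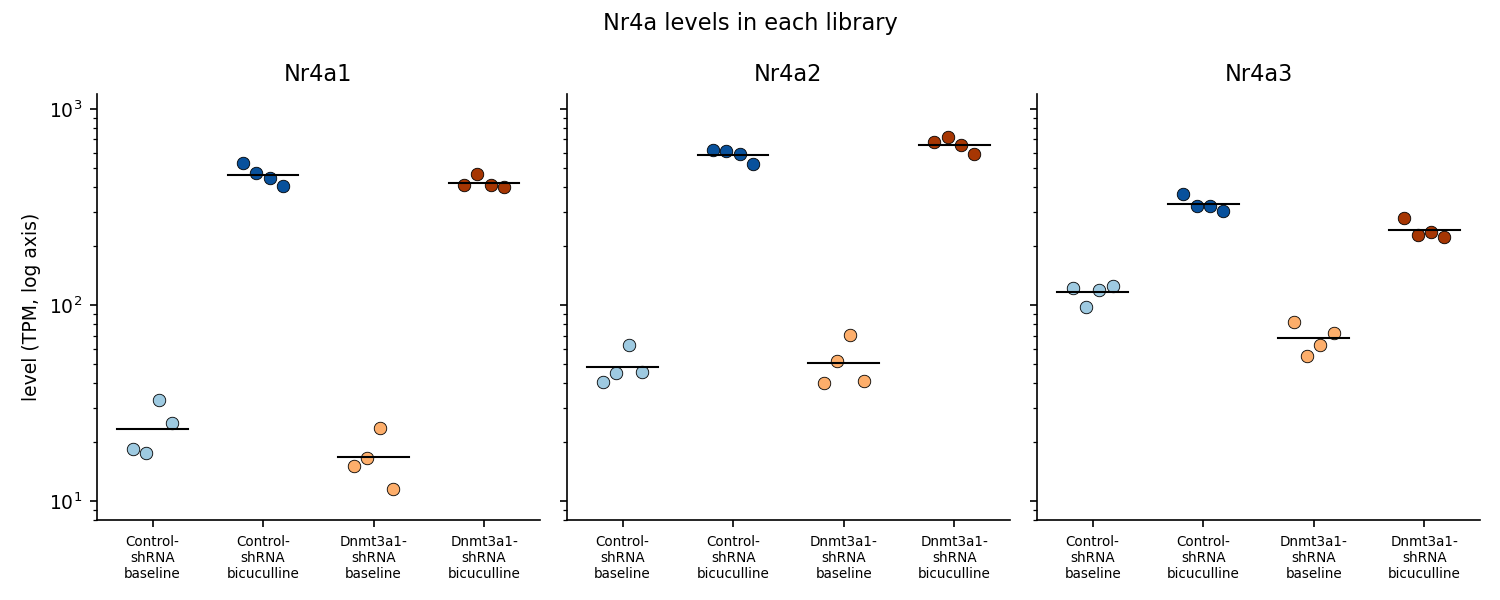
Level of Nr4a1, Nr4a2 and Nr4a3 (TPM, log axis) in each of the 16 libraries, by group; points are libraries in replicate order and bars are group means. Nr4a1 spans the widest range, from 11.6 to 528 TPM, while Nr4a3 has the highest baseline means and the lowest means after bicuculline, and its Dnmt3a1-shRNA points lie below its Control-shRNA points in both conditions.

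The make-up of the family changed with activity. The 3 genes together summed to 189 ± 22.9 TPM (mean ± SD, n = 4) in Control-shRNA baseline cultures and to 1380 ± 116 TPM after bicuculline. Nr4a3 made up 62.1% ± 5.13 of that sum at baseline and 23.8% ± 0.793 after treatment, whereas Nr4a1 went from 12.3% ± 2.21 to 33.5% ± 0.968 and Nr4a2 from 25.7% ± 3.45 to 42.6% ± 1.37. None of these shares overlapped between the untreated and the treated libraries. How often shares within other sets of genes separate in this way was not computed. In Dnmt3a1-shRNA cultures the sum was 136 ± 15.2 TPM at baseline and 1320 ± 86.0 TPM after bicuculline, and the share of Nr4a3 was 50.5% ± 9.73 and 18.3% ± 1.80.

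Ratios between members are taken inside a library, so the scaling between libraries does not enter them. The log2 ratio of Nr4a1 to Nr4a2 in TPM was between -1.34 and -0.88 in Control-shRNA baseline libraries and between -1.82 and -1.42 in Dnmt3a1-shRNA baseline libraries. After bicuculline it was between -0.41 and -0.22 in the controls and between -0.72 and -0.55 with the knockdown. For this ratio the knockdown libraries lay wholly below the control libraries in both conditions. The log2 ratio of Nr4a2 to Nr4a3 was between 0.73 and 0.94 in treated controls and between 1.28 and 1.66 in treated knockdown libraries, again with no overlap. At baseline its range was -1.61 to -0.92 in the controls and -1.03 to 0.17 with the knockdown, which overlapped. The log2 ratio of Nr4a1 to Nr4a3 overlapped in both conditions, with -2.73 to -1.87 in the controls and -2.63 to -1.41 with the knockdown at baseline, and 0.43 to 0.56 and 0.55 to 1.03 after bicuculline. These ratios are descriptions and were not tested. The share of other gene pairs that separate in this way was not computed. Among single tested genes, 13.2% lay wholly below the controls in TPM with the knockdown at baseline and 12.8% with bicuculline.

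**Figure D2:**
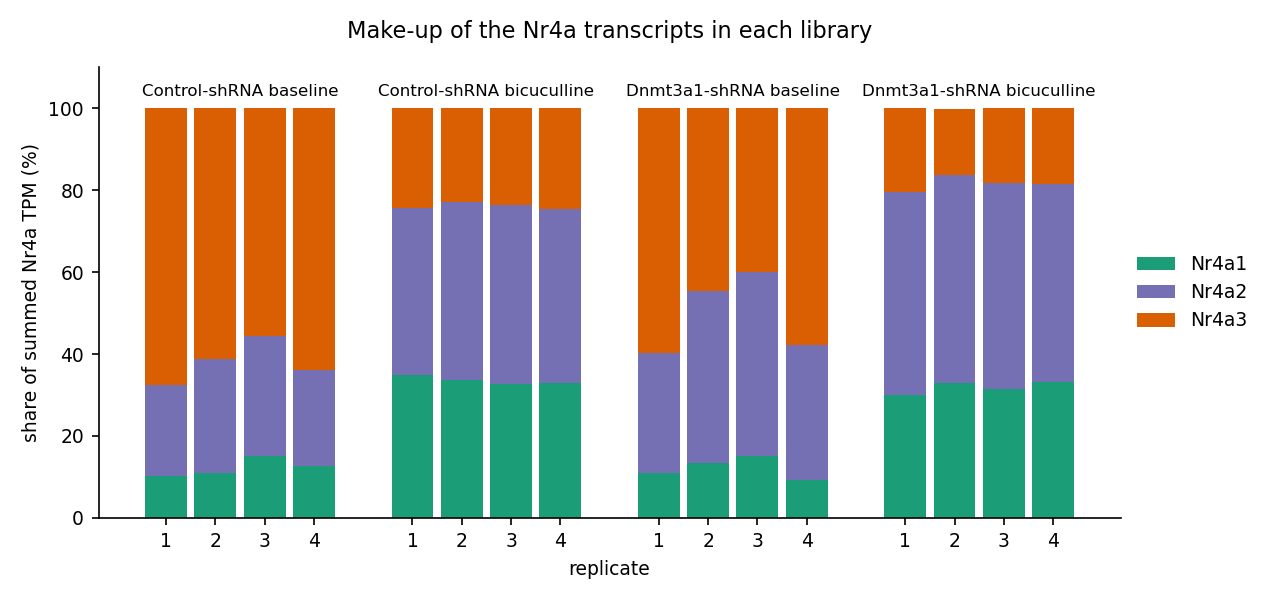
Share of Nr4a1, Nr4a2 and Nr4a3 in their summed TPM (percent, vertical axis), 1 bar per library, by group and replicate. Nr4a3 fills 55.5% to 67.6% of each Control-shRNA baseline bar and 22.8% to 24.5% of each Control-shRNA bicuculline bar.

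Tests were made on counts. CPM values below are counts scaled to a common library total with edgeR's TMM factors, and they compare 1 gene between libraries. Adjusted p-values are from edgeR's quasi-likelihood test over 17222 genes with Benjamini-Hochberg adjustment. Libraries were not paired by replicate number in this test, and values with a replicate block are given at the end. A gene was called changed at an adjusted p under 0.05 with an absolute log2 fold change of at least 0.5. The libraries held between 28912697 and 29586355 counted read pairs, and the least covered value of a member, Nr4a1 in replicate 4 of Dnmt3a1-shRNA baseline, rested on 362 of them. Dnmt3a itself was at 293 to 324 CPM in Control-shRNA baseline and 39.4 to 48.0 CPM in Dnmt3a1-shRNA baseline libraries, and at 311 to 338 and 43.8 to 47.8 CPM with bicuculline, so the labels and the target gene matched in all libraries. Its log2 fold change was -2.81 at baseline and -2.85 with bicuculline. Markers of neurons summed to between 4870 and 6470 TPM in every library. Markers of microglia were close to the floor at 3.93 to 9.19 TPM, and those of astrocytes were present at 145 to 419 TPM.

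Bicuculline raised all 3 receptors in Control-shRNA cultures, Nr4a1 the most and Nr4a3 the least. Nr4a1 was at 24.6 ± 5.70 CPM (SD, n = 4) at baseline and 574 ± 91.5 CPM after treatment. This was a log2 fold change of 4.54 ± 0.19 (SE), or 23.3-fold, with an adjusted p of 6.2e-12. Nr4a2 rose from 63.1 ± 8.16 to 877 ± 94.2 CPM, a log2 fold change of 3.80 ± 0.13 or 13.9-fold, with an adjusted p of 5.21e-13. Nr4a3 rose from 296 ± 50.7 to 928 ± 149 CPM, a log2 fold change of 1.65 ± 0.17 or 3.14-fold, with an adjusted p of 6.15e-07. Among 17222 genes ordered by log2 fold change they stood at ranks 42, 61 and 416. Of all tested genes 10.8% were called higher and 11.1% lower. The 95% intervals of the 3 log2 fold changes, 4.14 to 4.94, 3.53 to 4.06 and 1.29 to 2.01, did not overlap.

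The same held in Dnmt3a1-shRNA cultures. Nr4a1 was at 18.0 ± 4.51 CPM at baseline and 558 ± 52.6 CPM after bicuculline, a log2 fold change of 4.95 ± 0.20 or 30.9-fold (edgeR, adjusted p = 2.66e-12). Nr4a2 rose from 70.2 ± 9.48 to 1090 ± 138 CPM, a log2 fold change of 3.95 ± 0.13 or 15.5-fold (edgeR, adjusted p = 2.32e-13). Nr4a3 rose from 192 ± 46.5 to 708 ± 140 CPM, a log2 fold change of 1.89 ± 0.17 or 3.69-fold (edgeR, adjusted p = 1.06e-07). In this comparison 12.6% of tested genes were called higher and 13.2% lower.

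**Figure D3:**
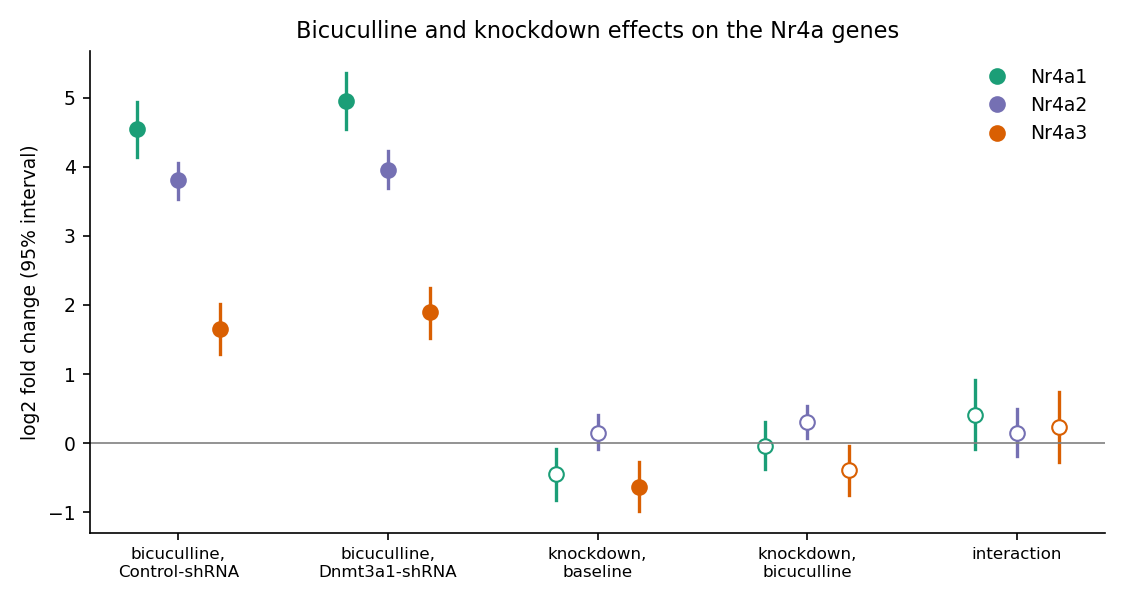
Log2 fold changes of Nr4a1, Nr4a2 and Nr4a3 with 95% intervals (vertical axis) for the bicuculline effect in each kind of culture, the knockdown effect in each condition, and the interaction; filled points were called changed. The 6 bicuculline points lie between 1.65 and 4.95, and of the 6 knockdown points only Nr4a3 at baseline, at -0.63, is filled.

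Knockdown of Dnmt3a1 left Nr4a3 lower at baseline, while Nr4a1 and Nr4a2 did not pass the test. Nr4a3 was at 340, 232, 278 and 332 CPM in Control-shRNA and 252, 152, 159 and 204 CPM in Dnmt3a1-shRNA replicates 1 to 4. Each knockdown library was below the control library of its own number, but the highest knockdown library was above the lowest control library. The log2 fold change was -0.63 ± 0.17, a ratio of 0.648 with a 95% interval of 0.506 to 0.830 and an adjusted p of 0.017. Of all tested genes 1.76% were called higher and 4.07% lower. In TPM the 4 knockdown libraries lay wholly below the 4 controls, as for 13.2% of tested genes. Leaving out a single library ended the call in 4 of 16 cases: without Control-shRNA baseline replicate 1 (log2 fold change -0.55, adjusted p 0.0575) or 4 (-0.56, 0.0551), and without Dnmt3a1-shRNA baseline replicate 2 (-0.53, 0.0545) or 3 (-0.55, 0.0514).

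Markers of GABAergic neurons were lower in summed TPM with the knockdown at baseline. Their 6 genes include Gad1, Gad2 and Slc32a1 of the GABA pathway. They summed to 2310 to 2700 TPM in Control-shRNA baseline and 1550 to 2140 TPM in Dnmt3a1-shRNA baseline libraries. Of single tested genes 13.2% lay wholly below the controls in TPM, and a share for sums was not computed. In counts 1 of the 6 was called lower, Sst, with a log2 fold change of -0.52, beside 4.07% of all tested genes. The median of the 6 was -0.21, with values from -0.52 to 0. With bicuculline the sums were 2840 to 3940 TPM in the controls and 2460 to 3090 TPM with the knockdown. These overlapped, and all 6 markers were not called changed by the knockdown there. Bicuculline raised 4 of the 6 in each kind of culture, beside 10.8% and 12.6% of all tested genes. The median log2 fold changes of the 6 were 0.59 and 0.70, against 0.01 and -0.01 over all tested genes. None of the 6 was at 0 in any group. At baseline 1 of 6 neuron markers was called higher with the knockdown, beside 1.76% of all tested genes. Of 4 tested microglia markers 1 was called lower, beside 4.07%. None of the excitatory, astrocyte, oligodendrocyte or fibroblast and vessel markers passed the test. The 6 excitatory markers summed to 1630 to 1720 TPM in Control-shRNA baseline and 1400 to 1590 TPM in Dnmt3a1-shRNA baseline libraries, also without overlap. In counts their median log2 fold change was 0.15, in the other direction. All 6 astrocyte markers nonetheless had log2 fold changes above 0 with the knockdown, from 0.29 to 0.64 at baseline and from 0.30 to 0.59 with bicuculline. The same was so of the 5 tested fibroblast and vessel markers, from 0.19 to 0.35 and from 0.20 to 0.38. In bulk RNA, fewer cells of a type and less RNA per cell cannot be told apart, and the part of these markers in the Nr4a3 result was not tested.

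For the other members the knockdown at baseline gave ranges that overlapped the controls. Nr4a1 was at 22.1, 18.5, 31.8 and 26.2 CPM in the controls and 18.6, 18.1, 23.2 and 12.2 CPM with the knockdown. Each knockdown library was below the control library of its own number, and 2 of them lay below all controls. Its log2 fold change was -0.45 ± 0.18 with a 95% interval of -0.82 to -0.08 and an adjusted p of 0.0934. It was called lower without Control-shRNA baseline replicate 2 (-0.57, adjusted p 0.0402) or without Dnmt3a1-shRNA baseline replicate 3 (-0.60, 0.0315). Nr4a2 was at 56.3, 57.2, 73.9 and 64.7 CPM in the controls and 64.8, 71.4, 83.0 and 61.5 CPM with the knockdown, the highest of them above all controls. Its log2 fold change was 0.15 ± 0.11, with an interval of -0.09 to 0.40 and an adjusted p of 0.409.

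In bicuculline-treated cultures no member was called changed by the knockdown. Nr4a3 was at 1150, 855, 849 and 858 CPM in the controls and 915, 653, 601 and 663 CPM with the knockdown. Replicate 1 was the highest library of both groups. The log2 fold change was -0.39 ± 0.17 with a 95% interval of -0.75 to -0.04 and an adjusted p of 0.121. Without Dnmt3a1-shRNA bicuculline replicate 1 it was -0.54 with an adjusted p of 0.0382, past both thresholds. Without Control-shRNA bicuculline replicate 1 it moved the other way, to -0.27 with an adjusted p of 0.296. Of the 16 fits with a library left out, 1 gave a call. In TPM the knockdown libraries of Nr4a3 lay wholly below the controls here too, as for 12.8% of tested genes. Of all tested genes 2% were called higher and 3.9% lower.

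Nr4a2 was at 1000, 889, 834 and 782 CPM in the treated controls and 1250, 1160, 979 and 962 CPM in the treated knockdown cultures. The ranges overlapped, the log2 fold change was 0.31 ± 0.11, and the adjusted p was 0.0662. Nr4a1 was at 700, 580, 526 and 490 CPM in the controls and 585, 617, 502 and 528 CPM with the knockdown, a log2 fold change of -0.04 ± 0.16 with a 95% interval of -0.38 to 0.30 and an adjusted p of 0.895. The sign of this value was not stable: it was 0.06 without Control-shRNA bicuculline replicate 1 and 0.01 without Dnmt3a1-shRNA bicuculline replicate 3.

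Whether the knockdown altered the response to bicuculline was tested as an interaction. It was 0.41 for Nr4a1 (log2, 95% interval -0.09 to 0.92), 0.15 for Nr4a2 (-0.18 to 0.49) and 0.23 for Nr4a3 (-0.27 to 0.74), with adjusted p-values of 1 for each. No gene among all those tested passed with edgeR (0%), where 852 genes, or 4.95%, had an unadjusted p under 0.05. Voom with limma also called 0 and DESeq2 called 18, none of them a member of the family. The intervals leave room for a response of Nr4a1 up to 1.89-fold larger with the knockdown. That Nr4a3 passed the knockdown test at baseline and not with bicuculline does not show a difference between the conditions.

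Estimated counts per TPM reflect mainly which transcripts of a gene the reads were assigned to, since longer transcripts give more counts per TPM. Set to 100% in Control-shRNA baseline libraries, this measure was 101% ± 0.62 for Nr4a1, 98.6% ± 1.68 for Nr4a2 and 96.9% ± 3.26 for Nr4a3 after bicuculline. Homer1, an activity-induced gene chosen after its values were seen, reached 135% ± 2.31. In Dnmt3a1-shRNA cultures the measure went from 99.3% to 104% at baseline to 88.3% to 97.5% after bicuculline for Nr4a3, and from 91.7% to 98.3% to 99.7% to 101% for Nr4a1. Neither pair of ranges overlapped, as for 12.8% of the 7981 genes with several transcripts and at least 200 counts in every library. It was not tested.

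Set against other nuclear receptors, the NR4A family moved from a minor to a leading part of the receptor transcripts. Over all 49 receptors listed, the 3 genes made up 7.6% to 9.9% of the summed TPM in Control-shRNA baseline libraries and 39.1% to 46.8% after bicuculline. With the knockdown the share was 5.0% to 6.3% and then 34.4% to 38.5%, of a sum that also held more Thra. By mean TPM in control cultures Nr4a3, Nr4a2 and Nr4a1 stood at ranks 2, 4 and 14 at baseline. After treatment Nr4a2, Nr4a1 and Nr4a3 held ranks 2, 3 and 4, behind the thyroid hormone receptor Thra at 1330 TPM in both. With the knockdown Thra was at 1750 TPM at baseline and 1800 TPM after bicuculline.

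Of the 46 other receptors 32 were tested, and in Control-shRNA cultures bicuculline raised 5 and lowered 8, beside 10.8% and 11.1% of all tested genes, with a median log2 fold change of -0.06 against 0.01 over all tested genes. Among those raised were Rorb (1.89), Rara, a retinoic acid receptor (0.98), and Nr2f2, a COUP transcription factor (0.92). Among those lowered were Rarg, another retinoic acid receptor (-1.01), and the orphan receptor Nr2c1 (-0.92). Thus Nr4a1 and Nr4a2 stood above every other tested receptor and Nr4a3 just below Rorb. In knockdown cultures bicuculline raised 5 and lowered 7. The knockdown itself lowered 1 receptor at baseline, the progesterone receptor Pgr (-0.65), and with bicuculline raised Thra (0.50) and lowered Pgr (-0.51). At baseline Thra had a log2 fold change of 0.49 (edgeR, adjusted p = 1.89e-05), just short of the fold threshold.

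**Figure D4:**
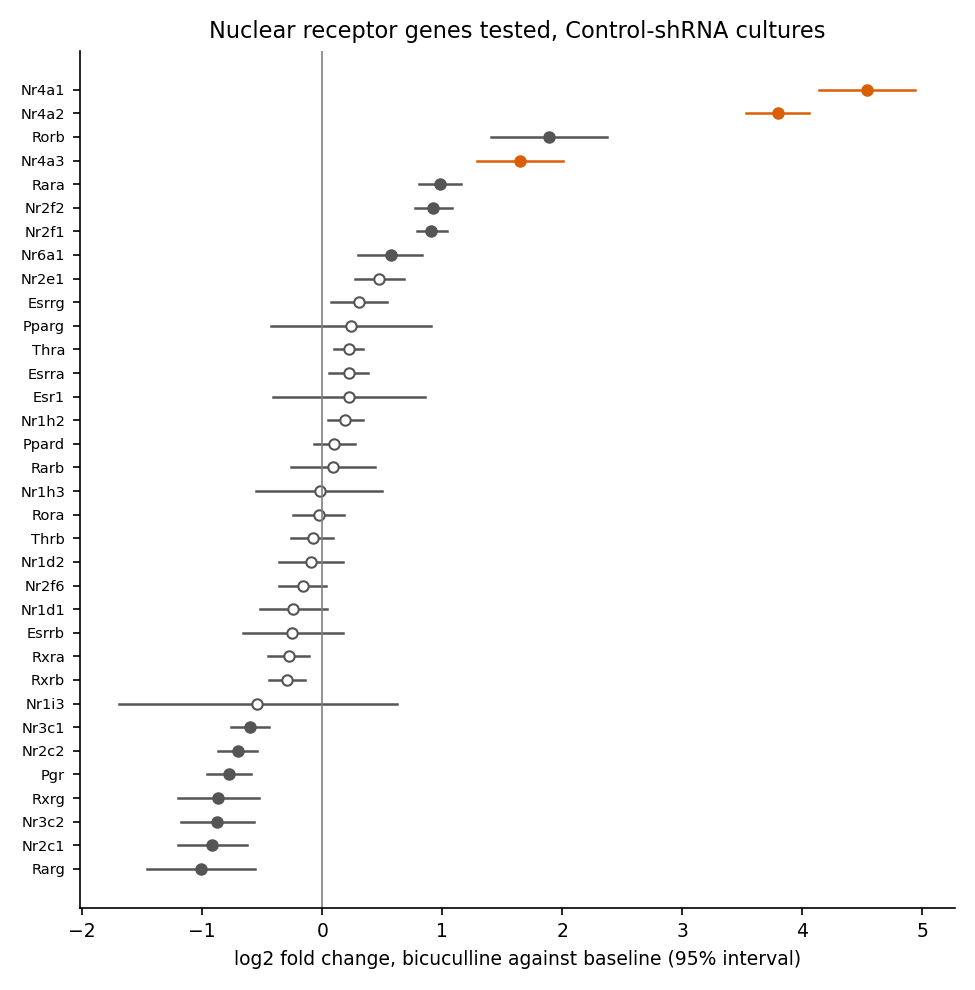
Log2 fold change with 95% interval, bicuculline against baseline in Control-shRNA cultures (horizontal axis), for 34 of the nuclear receptor genes tested, 1 per row; orange marks the NR4A genes and filled points were called changed. Nr4a1 at 4.54 and Nr4a2 at 3.80 stand apart from the rest, whose highest value is 1.89.

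Genes that feed NR4A transcription moved in both directions. Of 18 listed inputs, which include CREB family members, their coactivators, calcium-dependent kinases and class II histone deacetylases, 5 rose and 2 fell with bicuculline in Control-shRNA cultures, beside 10.8% and 11.1% of all tested genes; their median log2 fold change was 0.12. Crem, whose product ICER represses cAMP response elements, rose by 1.83, Atf1 by 1.09 and Srf by 0.76. Creb1 had a log2 fold change of -0.87 and Elk1 of -0.58. In knockdown cultures 3 rose and 3 fell, among them Hdac5 (0.65) and the coactivator Crtc1 (-0.61). The knockdown lowered 1 of the 18 at baseline, Crem, by a log2 fold change of -0.62 (edgeR, adjusted p = 0.0346), and none with bicuculline, where the values ran from -0.21 to 0.38.

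As immediate early genes the receptors can be read beside 16 others. All 16 were called higher with bicuculline in both kinds of culture, beside 10.8% and 12.6% of all tested genes. The median log2 fold changes of the 16 were 3.86 and 4.20. Npas4, Fosb and Fos led with 7.32, 7.26 and 6.40 in Control-shRNA cultures, and the lowest of the list was at 1.89. Nr4a1 and Nr4a2 therefore lay near the middle of this list, and Nr4a3, at 1.65, below its lowest member. At baseline the knockdown raised 1 of the 16, Fos (0.58, edgeR, adjusted p = 0.0437), beside 1.76% of all tested genes. The study, which used voom and limma, reported Fos, Arc and Npas4 as unaltered by the knockdown. With bicuculline the knockdown raised Homer1 (0.63) and lowered Fosb (-0.61), beside 2% and 3.9% of all tested genes.

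The genes nearest to each receptor were found from centred log2 CPM over the 16 libraries, by the root mean square (RMS) difference, among the 13879 tested genes whose mean reached 1 CPM. Nearest to Nr4a1 were the zinc finger factor Egr1 (RMS 0.30), 1700016P03Rik, a transcript overlapping Mir212 and Mir132 (0.34), Csrnp1 (0.38), Gadd45b (0.38) and Krt6a (0.40). Krt6a has a mean of 1.18 CPM, and its fitted log2 fold change of 7.67 in the controls was far from the 4.54 of Nr4a1. Nearest to Nr4a2 were the AP-1 subunit Junb (0.14), Gadd45g (0.18), Itprip (0.23), Sertad1 (0.24) and Ccn1 (0.24). Nearest to Nr4a3 were the histone demethylase Kdm7a (0.23), Zfp275 (0.24), Crem (0.26), the neuropeptide precursor Pnoc (0.27) and the G-protein regulator Rgs4 (0.27). No member was among the 5 nearest genes of another. Nr4a1 and Nr4a2 differed by 0.53, and of the 13879 genes Nr4a2 ranked 17 for Nr4a1 and Nr4a1 ranked 45 for Nr4a2. Nr4a2 and Nr4a3 differed by 1.15, and Nr4a1 and Nr4a3 by 1.54. Nr4a3 ranked 267 for Nr4a2 and 237 for Nr4a1, while Nr4a2 and Nr4a1 ranked 10961 and 13642 for Nr4a3.

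Nr4a3 and its nearest genes shared the direction of their knockdown values at baseline. Kdm7a had a log2 fold change of -0.40, Zfp275 of -0.25, Crem of -0.62, Pnoc of -0.69 and Rgs4 of -0.21. These 5 genes were picked for likeness over the same libraries, so the shared sign is part of how they were chosen. With bicuculline the values were 0.10, -0.12, -0.18, -0.08 and -0.44.

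Among 13 listed NR4A protein partners, 12 were tested, and 1 rose and 1 fell with bicuculline in the controls, close to the 10.8% and 11.1% of all tested genes. The survival gene Bcl2, whose product Nr4a1 can bind at mitochondria, rose by 0.93, and the retinoid X receptor Rxrg, a heterodimer partner, had a log2 fold change of -0.87. In knockdown cultures Bcl2 rose by 1.05 and the coactivator Ncoa3 by 0.53, while Rxrg (-1.21) and the coactivator Ncoa1 (-0.52) fell. The knockdown changed none of the 12 in either condition, where values ran from -0.31 to 0.47 at baseline and from -0.23 to 0.43 with bicuculline.

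Of 19 genes reported elsewhere as NR4A targets, 7 rose and none fell with bicuculline in Control-shRNA cultures, with a median log2 fold change of 0.24 against 0.01 over all tested genes, of which 10.8% were called higher and 11.1% lower. The neurotrophin Bdnf rose by 2.53, and the endoplasmic reticulum chaperone genes Sdf2l1 and Hspa5 by 1.62 and 1.18. In knockdown cultures 8 rose, led by Bdnf at 2.91, Sdf2l1 at 1.65 and Hspa5 at 1.35. Of the dopamine genes that Nr4a2 is known to drive, Th and Slc6a3 had mean levels of 0.364 and 1.02 CPM, and neither was called changed by bicuculline.

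The knockdown lowered 2 of the 19 targets at baseline and raised 1, beside 4.07% and 1.76% of all tested genes. The lists were made with earlier results known, and the study had already picked Nrp1 as a Dnmt3a1 target from these libraries. Its place among the lowered targets is therefore not independent of these data. Nrp1, a semaphorin and VEGF coreceptor, was at 134 ± 13.5 CPM in the controls and 62.0 ± 10.1 CPM with the knockdown, a log2 fold change of -1.11 ± 0.10 (edgeR, adjusted p = 9.89e-07). Bdnf had a log2 fold change of -0.74 (adjusted p = 0.009) and Slc6a3, close to the detection floor, of 0.85 (adjusted p = 0.0317). With bicuculline Nrp1 was at 215 ± 17.1 CPM in the controls and 126 ± 7.80 CPM with the knockdown, a log2 fold change of -0.78 (adjusted p = 4.28e-05), while Spp1 rose by 0.63 and Bdnf was at -0.36 (adjusted p = 0.17). Nrp1 and Bdnf, like Nr4a3, were higher with bicuculline in both kinds of culture and lower with the knockdown at baseline. Of the 19 targets, 16 were not called changed by the knockdown at baseline. Whether Nrp1 or Bdnf is linked to Nr4a3 was not tested. No NBRE was found in the promoter windows of Nrp1 or Bdnf. Only 1.51% of all windows held it, and neither the palindrome nor sites outside the windows were searched, so this search could not decide the point.

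**Figure D5:**
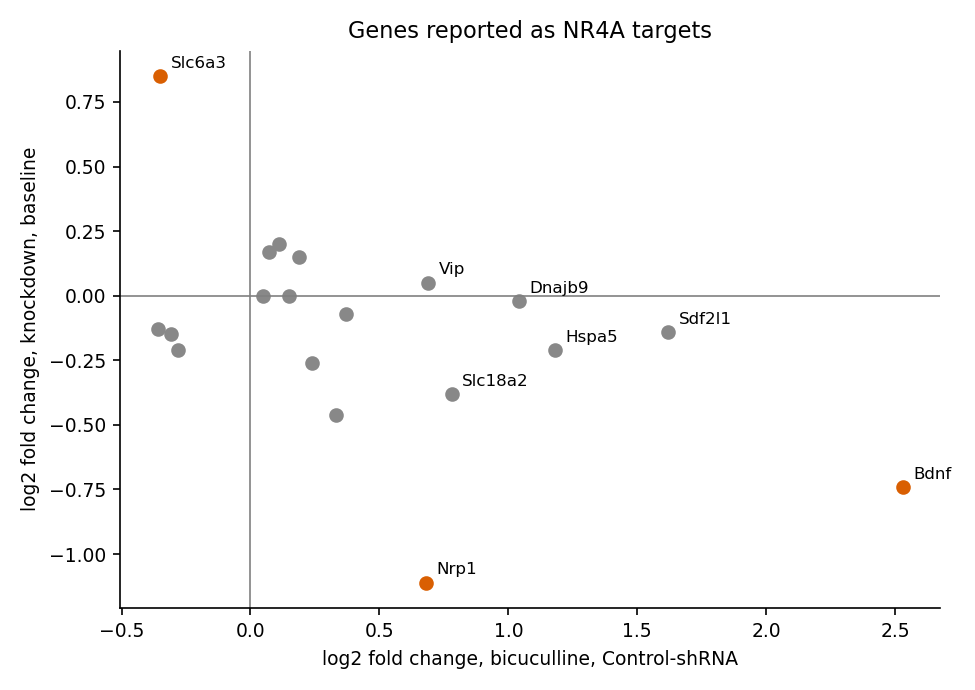
Log2 fold change of the 19 reported NR4A targets with bicuculline in Control-shRNA cultures (horizontal axis) and with the knockdown at baseline (vertical axis), 1 point per gene; orange marks genes called changed by the knockdown. Bdnf, at 2.53 and -0.74, and Nrp1, at 0.68 and -1.11, lie to the lower right. The horizontal and vertical axes share the Control-shRNA baseline libraries.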

How the data were processed

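RNA of 16 cultures was sequenced as paired reads on a BGISEQ-500. Per the submitters' notes, reads were trimmed with Trim Galore 0.6.4 and quantified with kallisto on GRCm38.p6. The authors deposited 2 values per gene and library, an estimated count and a TPM. The estimated counts (28912697 to 29586355 per library) were rounded, filtered with filterByExpr (17222 genes left), scaled by TMM (factors 0.871 to 1.12) and fitted over the 4 groups with edgeR 4.0.16, quasi-likelihood test, Benjamini-Hochberg over all genes. TPM were used for levels between genes and for overlap. Precision beyond counting error rests on 4 libraries per group, from separate preparations per the study's methods. The members and lists were chosen with earlier results of these data known. Named beside the members were up to 3 called genes per list, direction and comparison with the largest change (mean at least 1 CPM), the 5 nearest genes per member, Dnmt3a and Nrp1. One receptor that this rule names is not reported here. Other genes were named after their values were seen. Of 44 such genes looked up, 22 overlap another annotated gene, and strand use in counting is not given in the sources used here. Same-numbered libraries deviated together between Control-shRNA baseline and Control-shRNA bicuculline (r 0.142 to 0.221) and between the baseline groups (r 0.204 to 0.355), over genes. In both of these comparisons replicate 4 was not closest to its own number. Between Control-shRNA bicuculline and Dnmt3a1-shRNA baseline every library was closest to its own number (r 0.154 to 0.304). In the remaining pairs of groups replicates 2 and 4 were not. The labels do not state what a number shares. Alternatives used limma 3.58.1 (voom, or log2(TPM + 1) and log2(TPM + 0.1)), DESeq2 1.42.0, other scaling, no filter, only the groups compared, a replicate block and each library left out. The tests were checked on simulated counts.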

Additional observations from a re-analysis of the deposited data

Results flagged for a closer look

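Among 12 sets of 4 libraries, 3 genes in 4 groups, 1 held a library far from the rest by Dixon's criterion. Nr4a3 in Control-shRNA bicuculline replicate 1 was at 1150 CPM, while the other 3 libraries of the group lay between 849 and 858 CPM. Chance flags about 1 in 20 such sets. Without this library the Nr4a3 bicuculline effect in the controls was still called changed. The knockdown effect on Nr4a3 with bicuculline was then -0.27 in log2, and it was not called. Replicate 1 was also the highest library for Nr4a3 in Dnmt3a1-shRNA bicuculline (915 CPM).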

How the results depend on the processing

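The 6 bicuculline effects on the Nr4a genes were called higher under all 25 alternatives each (16 left-out libraries and 9 others). The knockdown effect on Nr4a3 at baseline was called in 9 of 9 other settings (log2 fold change -0.79 to -0.62) and in 12 of 16 with 1 library left out, where it ran from -0.79 to -0.53. With 1 library left out, Nr4a1 at baseline ran from -0.60 to -0.30 and was called in 2 cases, Nr4a3 with bicuculline ran from -0.54 to -0.27 and was called in 1, and Nr4a1 with bicuculline ran from -0.10 to 0.06. The interaction count of 0 became 18 with DESeq2, 3 without the filter, 3 with the replicate block, and ran from 0 to 1 with 1 library left out. Without the fold threshold the counts of called genes were 7131 and 7919 for bicuculline in Control-shRNA and Dnmt3a1-shRNA, and 2809 and 3046 for the knockdown at baseline and with bicuculline, against 3765, 4436, 1004 and 1015 with it. Apart from that looser rule, the cause was not tested. With library sizes only, the median of all genes was -0.15 and -0.16 for bicuculline and -0.07 and -0.08 for the knockdown, and the share called lower went from 50.8% to 69.0%, 51.1% to 67.2%, 69.8% to 85.8% and 66.1% to 80.8%. With the replicate block, no call of a member changed. Nr4a3 was then at -0.64 (edgeR, adjusted p = 1.02e-05) at baseline and -0.40 (0.000815) with bicuculline, below the fold threshold. Nr4a2 with bicuculline was at 0.31 (0.025) and Nr4a1 at baseline at -0.46 (0.0431), also below it. Between the treated groups, replicates 1 and 3 were closest to their own number (r 0.388 and 0.304). Replicates 2 and 4 were not (r 0.128 and 0.0667), so the numbers were not shown to pair all libraries there. Nr4a3 with bicuculline was likewise at -0.46 (0.0231) with library sizes only and at -0.44 (limma, 0.0188) on log2(TPM + 1), short of the fold threshold.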
